A study of Homo sapiens with 4 samples.

Results

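The genes described here are 10 members of the BCL2 family, the proteins that decide whether the outer membrane of the mitochondrion is opened in apoptosis. They were listed by symbol, with earlier results of these data known, out of 17687 genes measured in NB4-R4 cells. They comprise the anti-apoptotic members BCL2, BCL2L1, MCL1 and BCL2A1, the effectors BAX and BAK1, and the BH3-only members BCL2L11, BMF, PMAIP1 and BBC3. Of the 10, 9 had an array feature named with their symbol alone, and BBC3, which encodes PUMA, was not analysed here. Each of the 9 was represented by 1 feature.

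NB4-R4 is a subclone of NB4, a human acute promyelocytic leukaemia line, and is resistant to all-trans retinoic acid (ATRA). The cells had been given MK-8776, an inhibitor of the checkpoint kinase CHK1, at 4 µM for 96 h, or the vehicle DMSO for the same time. Each group had 2 arrays, called biological replicates in the series' design text. All groups thus share 1 resistant subclone, and no culture of an ATRA-sensitive line was analysed here. RNA was taken from live cells, so cells that had died by 96 h were not sampled.

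In a healthy cell the anti-apoptotic members hold BAX and BAK1 and the BH3-only proteins in check by binding them in a groove on their surface. BH3-only proteins are made or activated under stress, occupy that groove or engage the effectors directly, and BAX and BAK1 then form pores through which cytochrome c leaves the mitochondrion. Myeloid leukaemia cells differ in which anti-apoptotic member they lean on, BCL2 and MCL1 being the best known. Much of the control acts on the proteins, and the arrays measured RNA only.

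Values are RMA expression on the log2 scale, a relative brightness in which a step of 1 is a doubling. Changes are log2 differences, MK-8776 minus DMSO, with standard error (SE), 95% interval and p from limma. The p was adjusted over all 17687 genes by the Benjamini-Hochberg method. The 95% intervals are for each gene alone and were not adjusted. A gene was said to rise or fall where its adjusted p lay under 0.05. Nothing in the labels says how the cultures of a group were separated, so p rests on the spread between these arrays. For each gene limma joins its own spread (2 residual degrees of freedom) with a prior drawn from all genes (6.30 degrees of freedom). With 2 arrays a group an exact two-sided permutation test cannot go below p = 0.333, so none was used. In data simulated over 17687 genes, of which 200 were changed, 13.7% of true changes of size 1 (log2) and 94.6% of those of size 2 were called. The adjustment is milder where more genes change. The real comparison called 652 genes, so these shares may be too low for it. A member that missed the threshold may thus still have changed.

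Markers of the labelled cell type lay at unequal levels. MPO, the myeloperoxidase gene of promyelocytes, measured 14.81 and 15.36 in MK-8776 arrays and 16.09 and 16.27 in DMSO arrays. Of 8 listed promyelocyte markers 6 were measured. Of these, 3 lay above the median of all values (5.77) on all arrays and 0 lay under it on all arrays. Their mean level was 8.85 and 9.36 in MK-8776 arrays, against 9.81 and 10.33 in DMSO arrays. The protease genes PRTN3 and CTSG changed by -2.005 and -2.20 and the surface peptidase gene ANPEP rose by 1.07. Of 16 markers of B cells, T cells, erythroid cells and platelets, stroma and epithelium 13 were measured, and 8 of them lay under the median of all values (5.77) on all arrays. CD79A, CD79B, EPCAM and KRT18 lay above it on all arrays, of which KRT18 rose by 1.07. The mean level of these 13 was 5.75 and 5.61 in MK-8776 arrays and 5.61 and 5.63 in DMSO arrays. The part of these markers in the results on the BCL2 family was not tested. A smaller share of cells holding a transcript and less of it per cell cannot be told apart in such bulk RNA.

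The stretches of DNA just before the genes are shown for the 2 effectors and for PMAIP1, the BH3-only gene with the largest change. They are shown because 4 transcription factors that act on this family changed in these cells, as described further on. The list of factors was drawn up with earlier results of these data known. RefSeq promoter windows (GRCh38.p14) were found for 9 members, MCL1 being the exception. The 250 bases before the start were searched on both strands for CACGTG, the E-box letters bound by MYC and TFE3, for ACGTG, the core letters of HIF-1 sites, and for GTGGGCG, core letters of EGR1 sites. CACGTG contains ACGTG. Capitals mark these letters, and each sequence runs 5′ to 3′ on the gene's strand. The BAX window is chr19:48954625-48954874 (plus strand), the BAK1 window chr6:33580277-33580526 (minus strand) and the PMAIP1 window chr18:59899746-59899995 (plus strand).
BAX: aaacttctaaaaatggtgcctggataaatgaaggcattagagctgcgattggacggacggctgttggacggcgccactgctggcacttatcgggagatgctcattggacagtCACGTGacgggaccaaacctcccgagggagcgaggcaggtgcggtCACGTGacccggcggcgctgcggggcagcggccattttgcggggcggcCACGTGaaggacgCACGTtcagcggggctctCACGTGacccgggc
BAK1: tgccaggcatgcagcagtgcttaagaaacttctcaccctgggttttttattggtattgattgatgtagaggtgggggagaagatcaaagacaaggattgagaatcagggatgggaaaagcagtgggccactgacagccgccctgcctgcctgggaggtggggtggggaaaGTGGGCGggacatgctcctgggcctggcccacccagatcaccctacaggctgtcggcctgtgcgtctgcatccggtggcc
PMAIP1: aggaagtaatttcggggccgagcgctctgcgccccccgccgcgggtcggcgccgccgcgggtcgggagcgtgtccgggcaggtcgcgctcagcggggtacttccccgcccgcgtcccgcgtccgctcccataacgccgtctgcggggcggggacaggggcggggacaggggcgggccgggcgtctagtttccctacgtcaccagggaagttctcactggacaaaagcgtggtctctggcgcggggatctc

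The BAX window held CACGTG 4 times, with first bases 138, 93, 45 and 14 bases before the start, and a further ACGTG. BBC3, whose RNA was not analysed here, held CACGTG 1 time, 232 bases before the start. Its window overlaps the annotated span of the gene and is not printed. Of all 35116 promoter windows, 6.34% held CACGTG, 18.5% held ACGTG and 8.53% held GTGGGCG. BAK1 alone among the members held GTGGGCG, 1 time. PMAIP1 held none of these letters, nor did the windows of BCL2, BCL2L1, BCL2A1, BCL2L11 and BMF. The BCL2 window lies inside the annotated span of the gene and is not printed. These matches are letters in a window of fixed length, and binding was not measured.

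Among the anti-apoptotic genes BCL2 fell, MCL1 was higher by just under 1 on the log2 scale and narrowly missed the threshold, and BCL2A1 and BCL2L1 did not pass. Of the 9 measured members 1 fell, 0 rose and 8 did not pass. Over all genes, 3.69% passed (1.66% upward and 2.02% downward). At an unadjusted p under 0.05 the members were 3 (BCL2, MCL1 and PMAIP1), against 18.8% of all genes. The groups did not overlap in 6 of the 9, against 48.2% of all genes. The MK-8776 arrays were the higher ones without overlap in 5 of the 9, against 24% of all genes. These counts rest on 9 genes and are given as description.

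**Figure D1:**
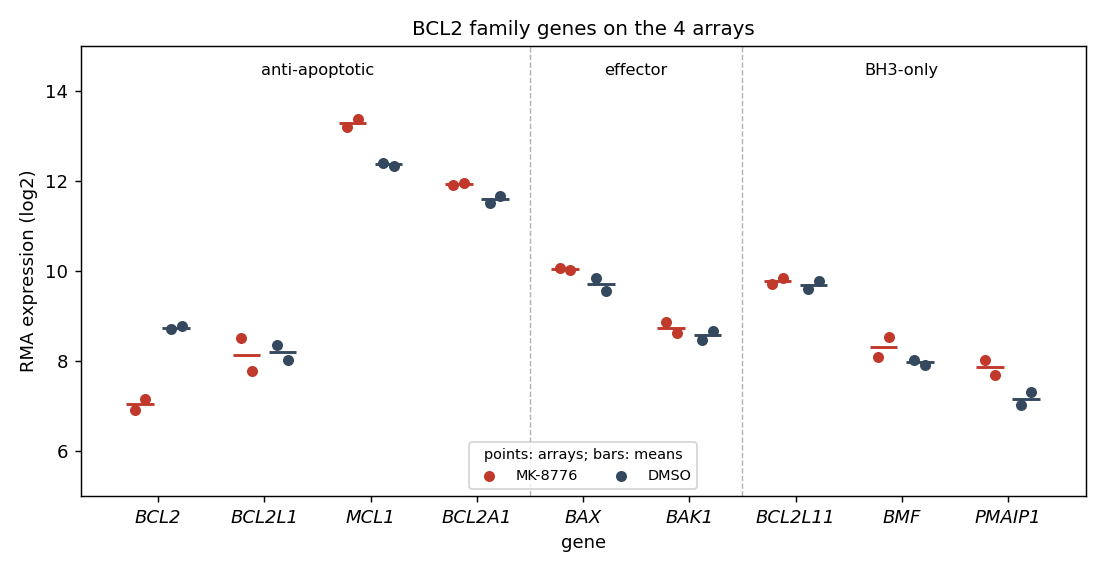
RMA expression (log2, vertical axis) of the 9 measured BCL2 family genes on each array, MK-8776 (red) left of DMSO (dark) for each gene; points are arrays and short bars are means of 2 arrays. BCL2 lies lower in both MK-8776 arrays, at 6.92 and 7.16 against 8.72 and 8.77 in DMSO, MCL1 lies higher, and the arrays of BCL2L1 overlap; levels of different genes are not comparable, since each has its own probes.

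BCL2 encodes the founding survival protein of the family and the target of the drug venetoclax (feature TC1800008891.hg.1, chromosome 18, 63123346 to 63320090, GRCh38). It measured 6.92 and 7.16 in the MK-8776 arrays and 8.72 and 8.77 in the DMSO arrays. Both treated arrays lay well under both control arrays, and the gap exceeded the difference between arrays of either group. The means were 7.04 ± 0.17 in MK-8776 and 8.74 ± 0.04 in DMSO (SD, n = 2 each), a change of -1.71 (SE 0.21, 95% interval -2.19 to -1.22, adjusted p = 0.00724 in the limma fit). On the linear scale this is a level 0.307 times that of DMSO, with an interval of 0.220 to 0.428. Only 0.916% of all genes changed by as much or more in either direction. The treated level still lay above the median of all values, so the fall did not end at the floor of the array. It kept its sign without each array in turn, at -1.58 to -1.82, and adjusted p was then 0.0773 to 0.356; in these fits 1 group is a lone array assumed to vary like the other.

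The 3 genes whose values over the 4 arrays lay nearest to those of BCL2, each gene centred on its own mean, were KIF14, ST3GAL4 and PRR11. Their distances from BCL2 were 0.0520, 0.0963 and 0.107 on the log2 scale. KIF14, on chromosome 1, encodes a kinesin motor of cell division and measured 6.90 and 7.16 in MK-8776 arrays and 8.66 and 8.71 in DMSO arrays. ST3GAL4 encodes a sialyltransferase and changed by -1.63, and PRR11 changed by -1.67. With 4 arrays in 2 groups, any gene with a fall of that size and little spread comes near, so the order says little.

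MCL1 encodes a short-lived survival protein on which myeloid cells depend (feature TC0100018484.hg.1, chromosome 1, 150574558 to 150579610). It measured 13.20 and 13.38 in the MK-8776 arrays, and 12.41 and 12.34 in the DMSO arrays. The groups did not overlap, with both treated arrays the higher. The means were 13.29 ± 0.13 in MK-8776 and 12.38 ± 0.05 in DMSO (SD, n = 2 each), a change of 0.915 (SE 0.21, 95% interval 0.44 to 1.39) that missed the threshold at adjusted p = 0.0518 (limma). It passed after median centring (0.0487), among genes above the median level (0.0281) and with a variance trend (0.00482, or 0.00577 with robust estimation). It did not pass after quantile normalization (0.0533), with all features tested (0.0622) or without any 1 array (0.204 to 0.436). The smallest absolute change among the 652 genes that passed was 0.925, so MCL1 sat at the edge of what 4 arrays could call.

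BCL2A1 encodes a further survival protein, induced by NF-kB and abundant in mature neutrophils (feature TC1500010184.hg.1, chromosome 15, 79960892 to 79971196). It measured 11.91 and 11.95 in MK-8776 arrays and 11.52 and 11.67 in DMSO arrays. The groups did not overlap, but the change of 0.335 (SE 0.20, 95% interval -0.13 to 0.80) did not pass (adjusted p = 0.443, limma). BCL2L1, the gene of BCL-XL (feature TC2000008815.hg.1, chromosome 20, 31664452 to 31723963), measured 8.51 and 7.78 in MK-8776 arrays and 8.36 and 8.03 in DMSO arrays. Its groups overlapped and its arrays varied most among the members, with a change of -0.05 (SE 0.28, 95% interval -0.69 to 0.59, adjusted p = 0.956, limma). The sign turned after quantile normalization. The interval runs from 0.618 to 1.51 times the DMSO level. BCL2L1 and MCL1 RNA can be spliced to forms with opposite roles, which 1 feature per gene does not separate.

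The effectors BAX and BAK1 were higher on average and neither passed. BAX (feature TC1900008505.hg.1, chromosome 19, 48954875 to 48961798) encodes the pore former that moves from the cytosol to the mitochondrion. It measured 10.07 and 10.02 in MK-8776 arrays and 9.85 and 9.56 in DMSO arrays, without overlap. The change was 0.34 (SE 0.21, 95% interval -0.15 to 0.83, adjusted p = 0.459, limma), or 0.195 without DMSO replicate 2. The BAX promoter with its E-boxes is shown above, and any link between them and the BAX values was not tested. BAK1 (feature TC0600011553.hg.1, chromosome 6, 33572552 to 33580276) encodes the pore former that resides on the mitochondrion. It measured 8.86 and 8.62 in MK-8776 arrays and 8.47 and 8.67 in DMSO arrays. These overlapped, and the change was 0.17 (SE 0.21, 95% interval -0.32 to 0.66, adjusted p = 0.742, limma). Leaving out replicate 1 gave 0.05 (MK-8776) or 0.07 (DMSO), and leaving out replicate 2 gave 0.29 (MK-8776) or 0.27 (DMSO). Both upper bounds lie under 1 on the log2 scale, so a doubling of either effector lay outside its interval.

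All 3 measured BH3-only genes were higher on average, as were 50.6% of all genes, and none passed limma's test. Of the 3, only PMAIP1 had an unadjusted p under 0.05, against 18.8% of all genes. A change at least as large as that of BMF was found in 36.1% of all genes, and for BCL2L11 in 80.3%. PMAIP1 encodes NOXA, which binds MCL1 and the BCL2A1 protein and spares BCL2 (feature TC1800007471.hg.1, chromosome 18, 59899996 to 59904305). It measured 8.03 and 7.69 in MK-8776 arrays, against 7.03 and 7.31 in DMSO arrays. The treated arrays were the higher without overlap. The change was 0.69 (SE 0.23, 95% interval 0.17 to 1.21, unadjusted p = 0.0157, adjusted p = 0.149, limma), and 11.8% of all genes changed by at least that much. PMAIP1 lies on chromosome 18, as does BCL2.

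BMF encodes a BH3-only protein tied to the cytoskeleton (feature TC1500009082.hg.1, chromosome 15, 40087890 to 40108879). It measured 8.10 and 8.53 in MK-8776 arrays and 8.03 and 7.91 in DMSO arrays, with a gap between the groups narrower than that between the treated arrays. Its change was 0.345 (SE 0.23, 95% interval -0.18 to 0.87, adjusted p = 0.486, limma). Leaving out MK-8776 replicate 2 gave 0.13, and leaving out its replicate 1 gave 0.56. BCL2L11 encodes BIM, which engages all anti-apoptotic members and is a FOXO3 target (feature TC0200008870.hg.1, chromosome 2, 111120914 to 111168445). It measured 9.72 and 9.85 in MK-8776 arrays and 9.60 and 9.79 in DMSO arrays. These overlapped, and the change of 0.09 (SE 0.21, 95% interval -0.39 to 0.57, adjusted p = 0.872, limma) turned to -0.005 without DMSO replicate 1.

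**Figure D2:**
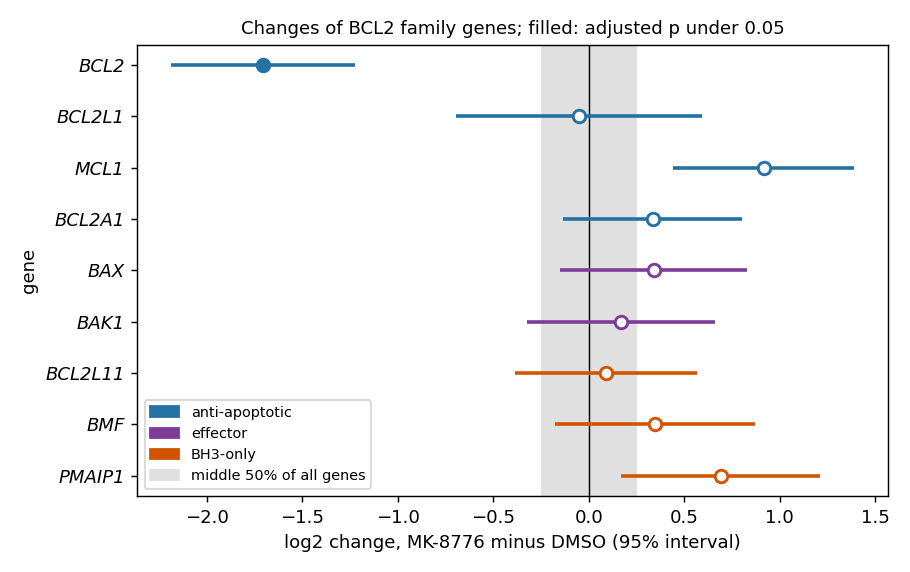
Log2 change, MK-8776 minus DMSO (horizontal axis), with its 95% interval from limma for each of the 9 genes, coloured by role; the filled point passed the threshold and the grey band spans the middle 50% of all genes. BCL2 stands alone on the left at -1.71, MCL1 and PMAIP1 lie to the right with intervals above 0, and the other 6 intervals hold 0. The intervals were not adjusted for the number of genes, and neither MCL1 nor PMAIP1 passed the threshold.

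By role, the median change was 0.14 for the 4 anti-apoptotic genes, 0.26 for the 2 effectors and 0.345 for the 3 BH3-only genes, against 0.005 for all genes. Of the 5 effector and BH3-only genes 5 were higher in MK-8776 and 0 passed limma's test (1 with unadjusted p under 0.05). A change above 0 was found in 50.6% of all genes, and an unadjusted p under 0.05 in 18.8%. The anti-apoptotic genes spread from -1.71 to 0.915, a wider range than the 0.09 to 0.69 of the effector and BH3-only genes. No test was made of the roles as sets.

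Balance was described on each array as the mean of the gene-centred values of a role. For the anti-apoptotic genes this was -0.03 and -0.10 in MK-8776 arrays and 0.09 and 0.04 in DMSO arrays, a difference of -0.13. That small difference joins large opposite ones. Without BCL2 the remaining 3 stood at 0.285 and 0.12 in MK-8776 arrays and -0.16 and -0.24 in DMSO arrays, a difference of 0.40. Without MCL1 the difference was -0.47. For the effectors the means were 0.20 and 0.06 in MK-8776 arrays and -0.11 and -0.15 in DMSO arrays, and for the BH3-only genes they were 0.15 and 0.22 in MK-8776 arrays and -0.25 and -0.13 in DMSO arrays. The direction of the anti-apoptotic mean thus turned when BCL2 was left out, while BH3-only and effector means were the higher in both treated arrays. Those means also join unequal genes, of which none passed. The BH3-only changes were 0.69 for PMAIP1, 0.345 for BMF and 0.09 for BCL2L11. The arrays of BCL2L11 and of the effector BAK1 overlapped between the groups.

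**Figure D3:**
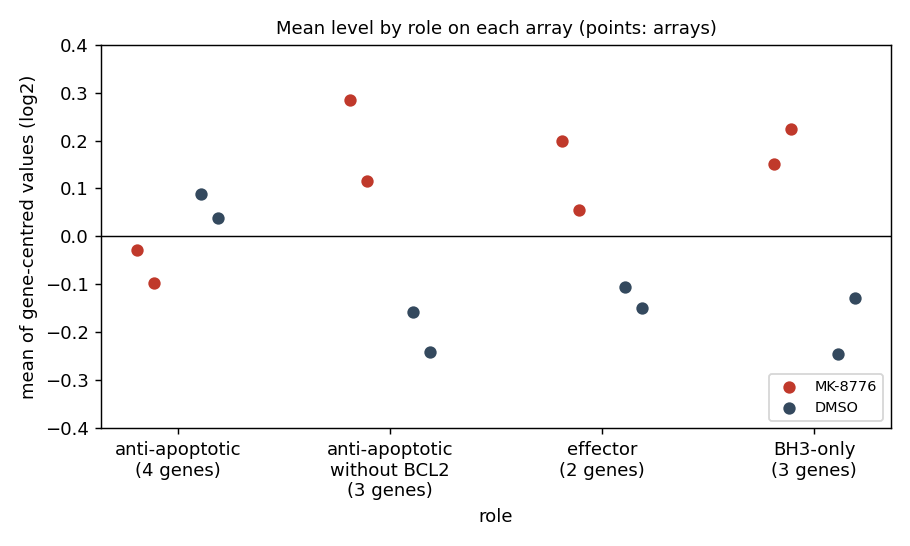
Mean of gene-centred log2 values (vertical axis) for each role on each array, MK-8776 (red) left of DMSO (dark). The 4 anti-apoptotic genes lie slightly lower in MK-8776, their mean without BCL2 lies higher, and the effector and BH3-only means lie higher in both MK-8776 arrays.

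Differences between members within an array showed how unequally they changed. The log2 value of MCL1 minus that of BCL2 was 6.28 and 6.22 in MK-8776 arrays and 3.69 and 3.57 in DMSO arrays, a shift of 2.62 towards MCL1. This pair was chosen for its opposite changes, and the shift is a description. BCL2A1 minus BCL2 shifted by 2.04 and BCL2L1 minus BCL2 by 1.66. The change of BCL2, -1.71, enters each of these differences and sets their direction. BCL2A1 itself changed by 0.335 and BCL2L1 by -0.05, and neither passed. BIM and its partner BCL2 shifted by 1.79 (BCL2L11 minus BCL2), nearly all of it from BCL2. For NOXA and its partner MCL1, neither of which passed, PMAIP1 minus MCL1 was -5.17 and -5.69 in MK-8776 arrays. In DMSO arrays it was -5.38 and -5.03, which overlap, a shift of -0.23. With NOXA's other partner BCL2A1, which did not pass either, the shift had the opposite sign. PMAIP1 minus BCL2A1 was -3.88 and -4.26 in MK-8776 arrays and -4.49 and -4.36 in DMSO arrays, without overlap, a shift of 0.355. BAK1 minus MCL1 shifted by -0.74. Only the shifts can be read, since features of different genes are not on a common scale.

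Other members of the family were given by a list of 14, all measured, of which 1 fell, 0 rose and 13 did not pass (3.69% of all genes passed). The median change was -0.06, against 0.005 for all genes. The fall was in BNIP3, which encodes an atypical BH3 protein best known for mitophagy under hypoxia. It measured 11.63 and 12.02 in MK-8776 arrays and 13.39 and 14.21 in DMSO arrays, a change of -1.98 (SE 0.30, adjusted p = 0.0144, limma). The related gene BNIP3L changed by -1.12 and missed the threshold (adjusted p = 0.0556, limma). BCL2L2, the gene of the survival protein BCL-w, measured 8.46 and 7.95 in MK-8776 arrays and 7.54 and 6.98 in DMSO arrays, a change of 0.945 that did not pass (adjusted p = 0.108, limma). BID, the BH3-only link from death receptors, had a change of -0.035. BNIP3L, BCL2L2 and BID were picked after their values were seen.

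Genes that govern MCL1 turnover or anchor BAK1 numbered 10 measured of 11. Of these 1 fell, 0 rose and 9 did not pass, with a median of -0.01 (3.69% of all genes passed). CDC20, an activator of the mitotic ubiquitin ligase APC/C, which marks MCL1 for destruction in mitosis, measured 8.33 and 8.88 in MK-8776 arrays and 10.22 and 10.40 in DMSO arrays. It changed by -1.71 (SE 0.25, adjusted p = 0.0120, limma). The other genes of this list, ubiquitin ligases, the deubiquitinase USP9X and the porins VDAC1 to VDAC3 among them, ran from -0.565 to 0.51.

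Of 15 genes of the apoptosome and the caspases 13 were measured, and 0 passed limma's test (3.69% of all genes passed). Of the 13, 3 had an unadjusted p under 0.05, against 18.8% of all genes. The median was 0.12. The 2 largest changes were -0.84 for ENDOG, the mitochondrial endonuclease G gene, and -0.65 for HTRA2, a mitochondrial protease gene (adjusted p = 0.213 and 0.155, limma). ENDOG was at -0.445 without DMSO replicate 2 and at -0.495 without MK-8776 replicate 1. ENDOG was dim, at 3.48 and 4.17 in MK-8776 arrays and 4.27 and 5.06 in DMSO arrays.

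Among the inhibitors of apoptosis 8 of 9 were measured, and 1 rose, 1 fell and 6 did not pass (3.69% of all genes passed). BIRC5, which encodes survivin, an inhibitor that also serves in chromosome segregation, measured 5.16 and 5.68 in MK-8776 arrays and 6.96 and 6.96 in DMSO arrays. Its change was -1.54 (SE 0.24, adjusted p = 0.0153, limma), to a level under the median of all values. CFLAR encodes c-FLIP, which blocks caspase-8. It measured 13.99 and 14.34 in MK-8776 arrays and 13.21 and 12.59 in DMSO arrays, a rise of 1.26 (SE 0.27, adjusted p = 0.0405, limma) whose adjusted p was 0.0503 with all features tested.

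**Figure D4:**
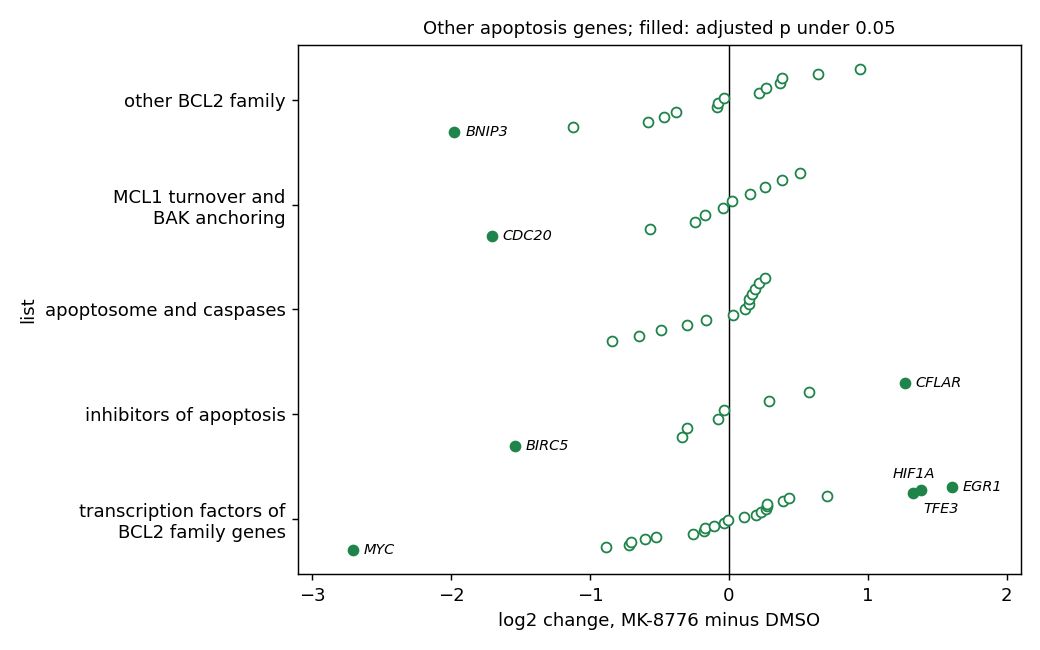
Log2 change, MK-8776 minus DMSO (horizontal axis), of 69 measured genes in 5 lists of apoptosis genes; filled and named points passed the threshold, and the vertical spread within a list only separates the points. The lists hold 4 rises (CFLAR, EGR1, HIF1A and TFE3) and 4 falls (BNIP3, CDC20, BIRC5 and MYC), and the other 61 lie open around 0.

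Of 25 transcription factors known to act on genes of the family, 24 were measured. Of these 3 rose, 1 fell and 20 did not pass, with a median of 0.05 (3.69% of all genes passed). All 5 lists were drawn up with earlier results of these data known, so their counts beside all genes are description only. MYC, which can drive both growth and BIM-dependent death, measured 10.09 and 10.99 in MK-8776 arrays and 12.98 and 13.51 in DMSO arrays, a change of -2.71 (SE 0.33, adjusted p = 0.00686, limma). EGR1, an immediate early factor, measured 10.11 and 10.51 in MK-8776 arrays and 8.81 and 8.60 in DMSO arrays, a rise of 1.61 (adjusted p = 0.0117, limma). HIF1A, the oxygen-regulated factor whose known targets include BNIP3, measured 13.96 and 13.87 in MK-8776 arrays and 12.50 and 12.56 in DMSO arrays, a rise of 1.39 (adjusted p = 0.0125, limma). HIF1A RNA and BNIP3 RNA thus moved in opposite directions. TFE3, a factor of lysosomal genes, rose by 1.32 (adjusted p = 0.0247, limma). FOXO3, an activator of BCL2L11 and named here after its value was seen, had a change of 0.275 (adjusted p = 0.551, limma). None of the 8 calls in the 5 lists held when any 1 of the 4 arrays was left out, while each change kept its sign. In such fits 1 group is a lone array and few or no genes of any kind passed. The loss of the calls therefore says little about these 8 genes.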

How the data were processed

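Expression in NB4-R4 cells was read on 4 Affymetrix arrays. The deposited values are log2 expression, with 1 value for each feature on each array. The authors made them with RMA and build hg38, per the submitters' processing notes; RMA settings and filters were not given in the sources used here. The log2 scale was read from the values (2.16 to 18.54, array medians 5.76 to 5.79). RMA aligns the arrays, so changes are relative to other genes. Without scanner files there is no detection call, and the number of arrays limits the precision. Of 21448 features 17709 carried 1 symbol, 0 carried several and 3739 were unnamed. All 17709 matched RefSeq genes (GRCh38.p14) by gene number. For 20 genes with several features the one with the highest mean was kept.

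The 17687 genes were tested with limma 3.58.1 (under R 4.3.3; lmFit, then eBayes; two-sided; no filter on level; 2 residual and 6.30 prior degrees of freedom) and checked on 10 simulated data sets with 200 changed genes. Members and lists were chosen with earlier results of these data known. Named are the members, up to 4 called genes per list (the 2 largest changes where none was called), and the 3 genes nearest a called member; others named are said to be chosen later. CHK1 activity was not measured. Alternatives were quantile normalization, median centring, testing only genes above the median level, a plain or robust variance trend, a block for replicate number, testing all features, the mean of a gene's features, and leaving out each array.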

Additional observations from a re-analysis of the deposited data

How the results depend on the processing

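The number of genes past the threshold was 652, and became 1185 with a variance trend, 1162 with a robust trend and 309 with the replicate number as a block. Leaving out 1 array gave 0 to 34 genes in limma. The count was 7 without MK-8776 replicate 1 (2024 genes with unadjusted p under 0.05), 34 without its replicate 2 (3017), and 0 without DMSO replicate 1 (2620) or its replicate 2 (1815). Members past the threshold numbered 1, and 2 (BCL2 and MCL1) after median centring, among genes above the median level and with either variance trend; leaving out any array gave 0 to 0. BCL2 passed in all 8 settings that kept the 4 arrays, with adjusted p 0.00213 to 0.0348. BCL2L1 changed sign after quantile normalization (0.034) and, without 1 array, ran from -0.415 to 0.315; BCL2L11 ran from -0.005 to 0.185. The causes were not tested. Both groups hold replicates 1 and 2, which the labels tie to no shared day or culture. Deviations from the group means correlated at 0.139 between arrays of the same number. With the replicate block BCL2 had an adjusted p of 0.0348, MCL1 had 0.0863, and the calls of CFLAR (0.0974) and TFE3 (0.0663) were lost. Apart from these, of the 9 called genes BCL2, BNIP3, CDC20, BIRC5, CFLAR, MYC, EGR1, HIF1A and TFE3, CFLAR alone missed the threshold in a setting that kept the 4 arrays (all features tested), and each of the 9 missed it without any 1 array. Signal over background could not be judged.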
